A study of Arabidopsis thaliana with 15 samples.

Results

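Roots fixed after a single parabola were compared with roots fixed in level flight before the first parabola, to describe the earliest response across gene families. The members are the 8 arrays labelled Level Flight (n = 4) or Parabola 1 (n = 4), of 15 arrays in the series. All rows of the expression table annotated to exactly 1 gene entered the comparison, which covered 16550 genes. Where a gene had more than 1 row, the row with the highest mean was used.

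A parabola is a flight manoeuvre in which a phase of reduced gravity lies between phases of raised gravity. The roots came from Arabidopsis thaliana seedlings of the cultivar Wassilewskija (WS), 10 days old and grown in continuous light. Every group, level flight included, carried the transgene pCaMV35S:14-3-3κ:GFP, in which a constitutive promoter of the cauliflower mosaic virus drives a 14-3-3 protein fused to green fluorescent protein, and no array of an untransformed plant was analysed here. Seedlings were fixed with RNALater on board a C-9 aircraft, in level flight or after parabola 1, 3 (n = 4) or 10 (n = 3). The replicates of a group were roots from 1 fixation tube, so that tube, time on board and flight manoeuvre cannot be told apart, and p-values measure the spread among roots of 1 tube. In whole roots, fewer cells of a type and less RNA per cell cannot be told apart either.

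Plant roots answer touch, bending and a change in the direction of gravity within minutes. Calcium enters the cytosol, calmodulin-like proteins bind it, and a burst of short-lived transcripts follows that encode zinc finger, WRKY and ERF transcription factors, ubiquitin ligases and enzymes that modify the cell wall. Many of these transcripts also rise when seedlings are handled, wounded or exposed to molecules from microbes. Their levels can fall as quickly as they rise.

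The values are log2 expression values from 1-colour arrays, so that a difference of 1 is a 2-fold change. A gene was called changed when its adjusted p in limma was under 0.05, and only such genes are said to have risen or fallen. Values after ± are standard errors (SE) of the log2 fold change, parabola 1 minus level flight. Of all tested genes 8.33% were called, 3.47% upward and 4.85% downward, and 0.332% rose and 1.22% fell at least 2-fold. The median log2 fold change was 0.56 among the genes that rose and −0.68 among those that fell, and 0.00796 among all genes. Arrays correlated at 0.9916 to 0.9937 within level flight, 0.9906 to 0.9926 within parabola 1 and 0.9819 to 0.9866 between the groups. On the first principal component of the 8 arrays, which held 45.7% of the variance, level arrays lay between −22.5 and −16.7 and parabola 1 arrays between 15.6 and 21.9. With the genes ranked by mean signal in 4 classes of like size, 0.749% were called in the dimmest class and 5.90%, 12.5% and 14.1% in the brighter ones. The median of the rows without a gene lay between 3.84 and 3.92 on level arrays and between 3.93 and 4.02 on parabola 1 arrays, without overlap, while the median of the tested genes lay between 3.67 and 3.70 and between 3.65 and 3.68. With the former median as a covariate 916 genes were called, against 1378 without it.

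Few markers of root cell types were among the tested genes. From 16 listed symbols of root hair markers, some of them synonyms, 2 genes were measured. They were the expansins EXPA7 (0.31, adjusted p = 0.223) and EXPA18 (−0.02, adjusted p = 0.973). Of 8 markers of lateral root primordia 3 were measured, of which LBD16, LBD29 and PUCHI had differences of 0.30, 0.36 and 0.01 and did not pass. The shoot marker RCA, the activase of the carbon-fixing enzyme, was the only gene measured from 18 listed symbols and differed by 0.10 (adjusted p = 0.807). No listed marker of non-hair epidermis, cortex, endodermis, xylem, phloem, root cap or meristem was among the tested genes, so the labelled tissue was checked only through these 6 genes.

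Most genes with the largest changes are known by locus only. Of the 20 largest falls among called genes without overlap between the groups, 5 had a symbol, and of the 20 largest rises 1, the MADS-box gene AGL46. The 20 falls ran from −3.02 to −1.99 and the 20 rises from 1.31 to 2.60. Of all tested genes, 14.0% did not overlap between the groups and 7.54% were called without overlap.

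**Figure D1:**
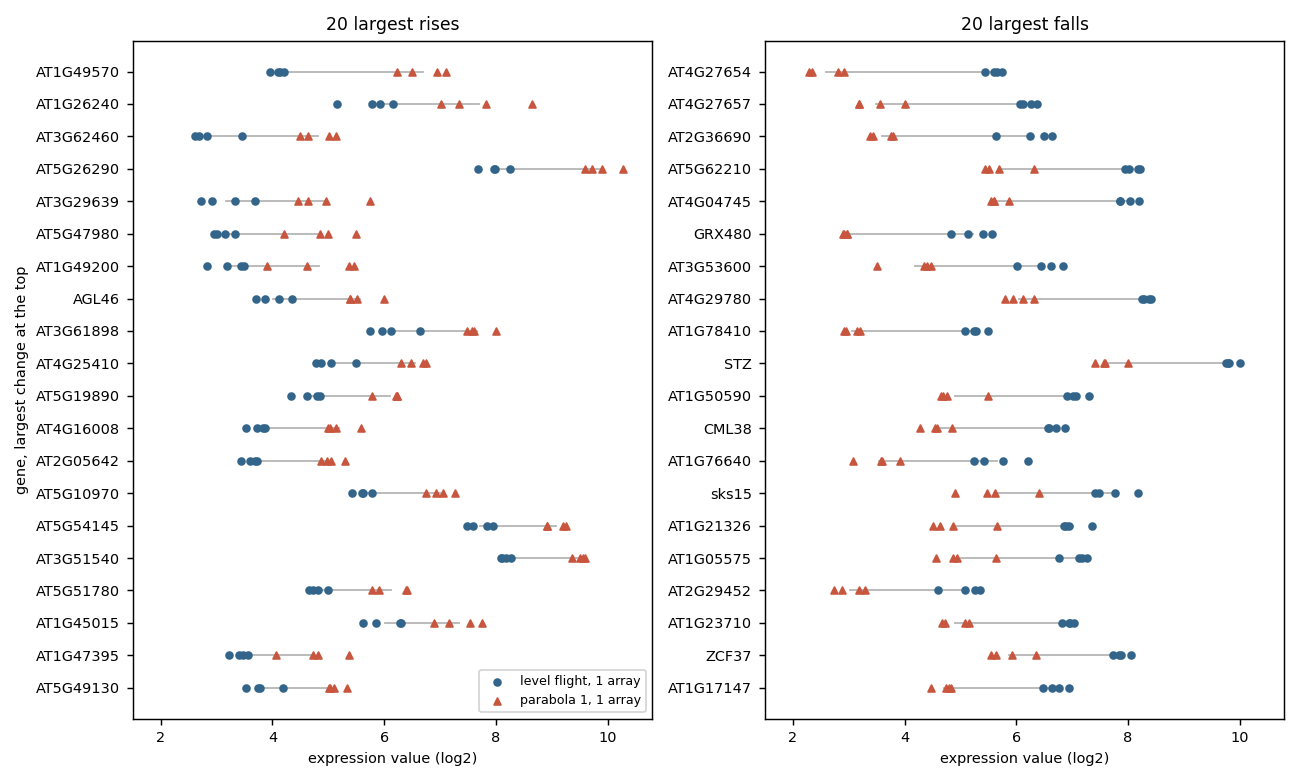
The 20 largest rises (left) and 20 largest falls (right) among genes that were called and did not overlap. Each circle is a level flight array and each triangle a parabola 1 array on the log2 scale, and grey lines join the group means. STZ fell from at least 9.75 to at most 8.0, and GRX480 lay between 2.90 and 2.97 on all 4 parabola 1 arrays.

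Among the rises was AT5G19890, a class III peroxidase gene, whose products use hydrogen peroxide to cross-link or loosen cell walls. It lay at 4.86, 4.62, 4.33 and 4.80 in level flight and at 6.23, 6.20, 6.22 and 5.78 after parabola 1 (1.46 ± 0.17 SE, adjusted p = 1.33e-05). Parabola 1 replicate 4 was the lowest of its group. That it lay above every level array was a condition for listing the gene among the largest rises. AT5G10970 (1.39 ± 0.11 SE), AT5G54145 (1.36 ± 0.13 SE) and AT3G51540 (1.34 ± 0.14 SE) rose to levels of at least 6.75 on every parabola 1 array. AT3G51540 lay at 8.19, 8.11, 8.09 and 8.27 in level flight and at 9.50, 9.37, 9.57 and 9.59 after parabola 1. AT4G16008 (1.45 ± 0.13 SE), AT5G51780 (1.33 ± 0.13 SE), AT1G45015 (1.33 ± 0.18 SE) and AT5G49130 (1.31 ± 0.16 SE) rose by a like amount. AT2G05642 (1.44 ± 0.33 SE) and AT1G47395 (1.32 ± 0.29 SE) had larger errors. Both lost their calls with the median of the rows without a gene as a covariate (adjusted p = 0.0523 and 0.105).

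Among the falls, sks15 encodes a relative of SKU5, a protein anchored outside the plasma membrane that is known for its part in the direction of root growth. It lay at 8.19, 7.41, 7.49 and 7.77 in level flight and at 6.41, 5.61, 5.48 and 4.90 after parabola 1 (−2.11 ± 0.30 SE, adjusted p = 0.000138). Its relative sks16 lay at 7.38, 6.80, 6.92 and 7.55 and then at 6.23, 5.61, 5.11 and 5.32 (−1.59 ± 0.24 SE). Only 3 genes of this group were matched by name, and the remaining one differed by 0.17 and did not pass. ZCF37 (−2.01 ± 0.18 SE) and AT1G17147, which encodes a VQ motif protein (−1.99 ± 0.16 SE), fell about as far. AT1G23710 had the smallest error of the 20, with 6.95, 6.95, 6.82 and 7.04 in level flight and 5.15, 5.09, 4.68 and 4.73 after parabola 1 (−2.03 ± 0.13 SE). AT1G50590 (−2.18 ± 0.23 SE), AT1G21326 (−2.09 ± 0.24 SE), AT1G05575 (−2.08 ± 0.25 SE) and AT2G29452 (−2.05 ± 0.25 SE) were also among the 20. In all 4 of these, parabola 1 replicate 2 was the highest of its group.

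Gene families were formed from symbols and their synonyms. Genes known by locus only, the majority of the tested genes and of the largest changes, could be placed only where a synonym matched. A family's measured members below are therefore those matched by name, and its counts leave out relatives without one. The families took in 900 tested genes in 85 families, of which 51 had at least 5 measured members, and in 15 of the 51 no member was called. A family's count is read against the 3.47% of all genes that rose and the 4.85% that fell.

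**Figure D2:**
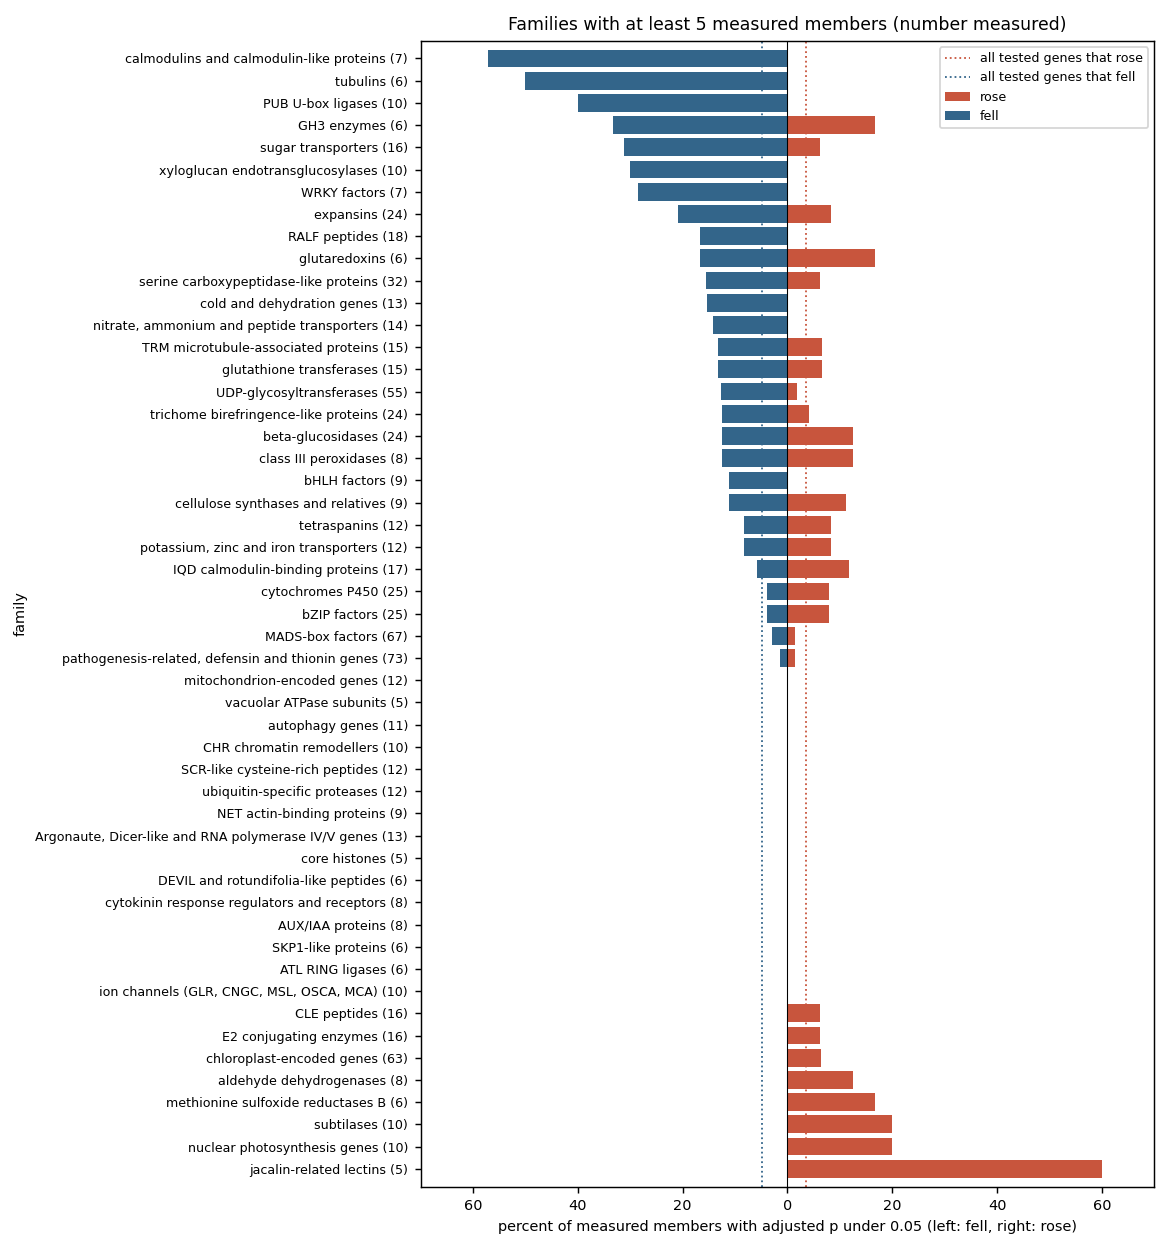
Percent of measured members that rose (right, red) or fell (left, blue) after parabola 1 in 51 families, with the number measured in brackets. Dotted lines mark 3.47% and 4.85%, the shares over all tested genes. Calmodulin-like genes, tubulins and U-box ligases reach furthest left, and jacalin-related lectins furthest right with 3 of 5.

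In the calcium pathway, of 7 calmodulin-like genes matched by name 4 fell and none rose, with a median of −0.49. The other 3 differed by −0.20 to 0.25 and did not pass. CML38 fell from between 6.57 and 6.88 to between 4.28 and 4.84 (−2.13, adjusted p = 1.48e-06). AT1G76640 fell from between 5.24 and 6.20 to between 3.07 and 3.92 (−2.11, adjusted p = 4.49e-06). Each of these genes passed with any single array left out. CML38 and AT1G76640 are neighbours in the gene order, and whether their probe sets share signal was not tested. CML37 lay at 3.22, 3.09, 3.85 and 3.68 in level flight and at 2.47, 2.96, 2.84 and 2.72 after parabola 1 (−0.71 ± 0.16 SE). CML23, whose product is known to restrain nitric oxide signals, went from 2.68, 3.26, 2.61 and 2.76 to 2.43, 2.16, 2.25 and 2.52 (−0.49 ± 0.13 SE). Both were dim, with most values under the median of the tested genes. CML23 did not pass once level replicate 2 or parabola 1 replicate 2 or 3 was omitted (adjusted p up to 0.0768), which left 3 falls. CML37 and CML23 also lost their calls with the median of the rows without a gene as a covariate (adjusted p = 0.0601 and 0.129). All 10 ion channel genes matched by name are glutamate receptor-like genes, which encode calcium-permeable channels. None was called, their differences ran from −0.19 to 0.20, and those with the smallest p were GLR2.7 (−0.19, adjusted p = 0.522) and GLR2.2 (−0.18, adjusted p = 0.545).

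Transcripts for proteins that bind calmodulin on microtubules changed in both directions. Of 17 IQD genes, which encode scaffolds with calmodulin-binding motifs, 2 rose and 1 fell. IQD22 fell from 7.22, 7.29, 7.47 and 7.20 to 6.77, 6.76, 6.46 and 6.73 (−0.62 ± 0.11 SE). The gene iqd15 rose from 6.53, 6.50, 6.80 and 6.61 to 7.29, 7.26, 7.02 and 7.38 (0.63 ± 0.13 SE), and IQD20 rose by 0.60 ± 0.14 SE. In all 3 genes the groups did not overlap, as in 1248 of the 1378 called genes.

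U-box ubiquitin ligases attach ubiquitin to proteins and so mark them for breakdown. Of 10 PUB genes 4 fell and none rose, and this count was 4 with each of the 8 arrays left out in turn. PUB22, PUB23 and PUB24 encode related ligases that together dampen the immune response to microbial molecules. PUB23 lay at 8.95, 8.78, 9.10 and 9.03 in level flight and at 7.27, 7.30, 7.31 and 6.92 after parabola 1, a 3.40-fold lower level (−1.76 ± 0.13 SE, adjusted p = 1.83e-07). PUB24 went from 8.36, 7.93, 8.60 and 8.75 to 7.22, 7.36, 7.17 and 7.06 (−1.21 ± 0.16 SE). PUB22 went from 7.61, 7.41, 7.88 and 7.98 to 6.61, 6.87, 6.39 and 6.61 (−1.10 ± 0.19 SE). Every parabola 1 array of these 3 genes lay below every level array, and 1248 of the 1378 called genes likewise did not overlap. The fourth, PUB19, a ligase of drought and abscisic acid responses, was dim and fell from 3.29, 3.14, 2.96 and 3.03 to 2.27, 2.31, 2.42 and 2.34 (−0.77 ± 0.13 SE). The other 6 members differed by −0.29 to 0.04, which gave a family median of −0.17.

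In other parts of the ubiquitin system, of 16 E2 conjugating enzymes, which hand ubiquitin to ligases, UBC16 was called and rose from 8.02, 7.95, 8.03 and 8.19 to 8.54, 8.46, 8.81 and 8.78 (0.60 ± 0.10 SE). Of 6 RING ligases with an ATL symbol none was called, with ATL4H at 0.28 (adjusted p = 0.316) and ATL8 at 0.18 (adjusted p = 0.663). The 6 SKP1-like genes, subunits of another ligase type, and the 12 ubiquitin-specific proteases, which remove ubiquitin, had no call, with SK16 (0.12), SK18 (0.11), UBP20 (−0.27, adjusted p = 0.103) and UBP23 (0.15) nearest. UBP20 passed with array weights (−0.29, adjusted p = 0.0495).

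Among transcription factors with a symbol, of 7 WRKY genes 2 fell. WRKY22, which acts downstream of MAP kinases in the answer to bacterial flagellin, lay at 5.93, 5.68, 5.84 and 5.66 in level flight and at 4.87, 4.56, 3.83 and 4.27 after parabola 1 (−1.40 ± 0.17 SE). WRKY6, known from senescence and phosphate starvation, fell from 9.36, 9.01, 8.97 and 9.23 to 8.60, 8.54, 8.53 and 8.35 (−0.64 ± 0.13 SE). The remaining 5 WRKY genes differed by −0.39 to 0.30. The gene tny, which encodes the DREB-type factor TINY, went from 6.24, 6.44, 6.25 and 6.31 to 5.65, 5.85, 5.75 and 5.82 (−0.55 ± 0.10 SE), and was 1 of 3 ERF and DREB genes matched by name. Of 9 genes with a bHLH symbol, BHLH92 was called. It was dim and fell from 2.86, 3.09, 3.15 and 3.29 to 2.19, 2.19, 2.02 and 2.01 (−0.99 ± 0.10 SE). Of 3 C2H2 zinc finger genes matched by name STZ was called. Level and parabola 1 arrays did not overlap in any of these named genes, as in most called genes.

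Among bZIP factors and MADS-box factors, shares of calls lay near the background and rises occurred too. Of 25 bZIP genes 2 rose and 1 fell. bZIP48 rose from 4.17, 4.71, 4.74 and 3.74 to 5.88, 5.65, 5.58 and 5.47 (1.3 ± 0.21 SE), and bZIP58 from 7.57, 7.98, 8.13 and 7.62 to 8.60, 8.59, 8.37 and 8.66 (0.73 ± 0.14 SE). BZIP34, known from pollen development, fell (−0.74 ± 0.14 SE). Of 67 MADS-box genes, of which 56 were dimmer than the median gene, AGL46 rose, and AGL65 (−0.58 ± 0.11 SE) and AGL19 (−0.75 ± 0.22 SE) fell. The call of AGL19, whose groups overlapped, was lost when any of 6 of the 8 arrays was left out (adjusted p up to 0.141).

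Cell wall families held both falls and rises. Expansins loosen the contacts between wall polymers. Of 24 measured expansin genes 5 fell and 2 rose, and 17 did not pass. EXPB1, a beta-expansin, fell from 6.98, 6.86, 6.92 and 7.10 to 5.89, 6.54, 5.70 and 5.60 (−1.03 ± 0.20 SE). The expansin-like genes EXLA2 (−0.83 ± 0.18 SE) and EXLA3 (−0.78 ± 0.15 SE) fell as well, EXLA2 from between 4.10 and 4.46 to between 3.20 and 3.70. EXPA4, an alpha-expansin, rose from 5.94, 6.14, 6.30 and 5.66 to 6.74, 6.62, 6.86 and 6.60 (0.69 ± 0.15 SE). The 3 called members not named lay between −0.80 and 0.43, and the family median was 0.00494.

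Of 10 xyloglucan endotransglucosylase genes, which cut and rejoin xyloglucan, 3 fell, with a median of −0.40. Beside XTH19 and XTH21, XTH16 fell from 3.92, 3.50, 3.10 and 4.03 to 3.12, 3.37, 2.98 and 2.67 (−0.60 ± 0.17 SE). Its groups overlapped, and its call was lost when any of 5 of the 8 arrays was left out (adjusted p up to 0.123). CSLC04, which encodes a synthase of the xyloglucan backbone, fell from 8.64, 8.64, 8.75 and 8.79 to 8.14, 8.12, 8.06 and 7.97 (−0.63 ± 0.09 SE). CSLA03, of a family of mannan synthases, rose from 4.48, 4.61, 4.66 and 4.54 to 4.90, 5.25, 5.01 and 5.19 (0.51 ± 0.12 SE). These were the calls among 9 cellulose synthases and relatives.

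Trichome birefringence-like proteins add acetyl groups to wall polysaccharides. Of 24 measured, TBL42 rose from 2.70, 2.24, 2.39 and 2.81 to 3.46, 3.47, 3.55 and 3.56 (0.97 ± 0.13 SE), while TBL19 (−0.75), AT2G31110 or TBL40 (−0.45) and TBL41 (−0.44) fell. The 3 falls were lost when any of 4, 5 and 7 of the 8 arrays, respectively, was left out (adjusted p up to 0.156), and with 1 array left out the count of falls lay between 0 and 2. Of 8 class III peroxidases found by symbol, AT5G64120 or PRX71 rose (1.05 ± 0.29 SE). PRXCA, known from the oxidative burst outside the cell, fell (−0.75 ± 0.20 SE). This count leaves out the peroxidase genes AT1G49570 (2.60) and AT5G19890 (1.46), which are known by locus only. Both were named as largest rises and passed with each of the 8 arrays left out. The call of AT5G64120 was lost when any of 5 of the 8 arrays was left out and that of PRXCA when any of 4 was (adjusted p up to 0.104 and 0.0737). The 9 other wall genes named above as changed, namely EXPB1, EXLA2, EXLA3, EXPA4, XTH19, XTH21, CSLC04, CSLA03 and TBL42, passed with each of the 8 arrays left out.

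Among cytoskeleton genes, of 6 tubulin genes 3 fell, with a median of −0.29. TUB1 lay at 6.70, 6.53, 6.34 and 6.70 in level flight and at 5.59, 5.71, 5.82 and 5.67 after parabola 1 (−0.87 ± 0.11 SE, adjusted p = 4.15e-05). TUB7 (−0.49 ± 0.13 SE) and TUB9 (−0.38 ± 0.11 SE) fell less, and their calls were lost when any of 4 and 6 of the 8 arrays, respectively, was left out (adjusted p up to 0.0956 and 0.139), which left a single fall in some of these fits. ACT11, an actin gene known best from pollen and ovules, went from 6.87, 6.99, 6.86 and 7.17 to 5.70, 5.85, 5.25 and 5.68 (−1.36 ± 0.18 SE), a 2.56-fold lower level. ACT12, the only other actin gene matched by name, differed by −0.04 and did not pass.

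Of 15 TRM genes, whose products recruit a complex that orders microtubules, 1 rose and 2 fell. ATOBGM, also named TRM32, fell from 4.34, 3.73, 4.05 and 4.89 to 3.42, 3.28, 3.25 and 3.08 (−0.99 ± 0.17 SE). TRM28 rose from 5.32, 5.12, 4.90 and 5.29 to 6.02, 5.45, 6.23 and 6.18 (0.81 ± 0.18 SE), and TRM25 fell (−0.65 ± 0.16 SE), a call that was lost without parabola 1 replicate 3 (adjusted p = 0.0533). None of 9 NET genes, which bind actin, was called, and NET1A (−0.18) and NET1D (0.11) had the smallest p.

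**Figure D3:**
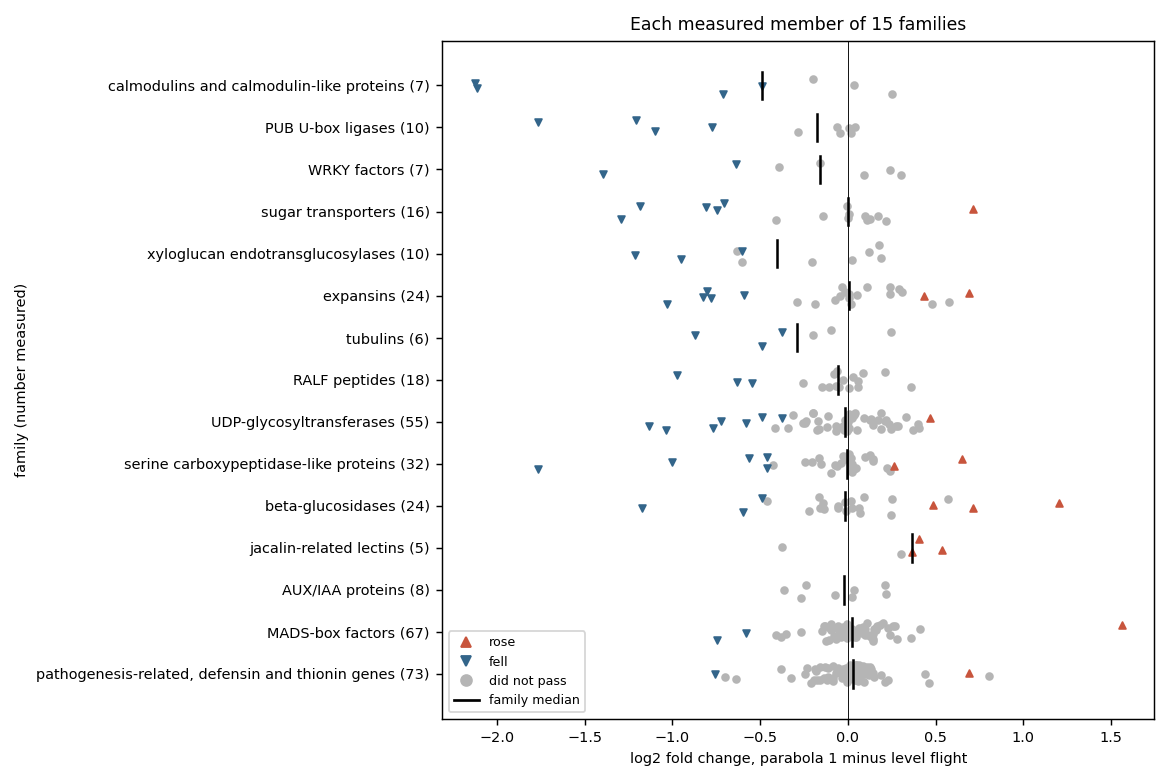
Log2 fold change of each measured member in 15 families. Triangles pointing up are members that rose, triangles pointing down those that fell, grey circles those that did not pass, and black bars family medians. In most of these families a few members lie far to the left and the rest near 0, so that the median of the 55 UDP-glycosyltransferases is −0.01 although 7 fell.

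Sugar transporters of the SWEET family were called in 6 of 16 cases, 5 of them falls. SWEET proteins let sugars pass membranes along their gradient. SWEET13, a sucrose transporter of the plasma membrane, lay at 3.70, 3.90, 3.91 and 3.47 in level flight and at 2.46, 2.56, 2.61 and 2.59 after parabola 1 (−1.19 ± 0.12 SE, adjusted p = 4.31e-06). SWEET14 went from 2.47, 3.03, 2.63 and 2.84 to 2.01, 1.95, 2.11 and 1.92 (−0.74 ± 0.12 SE), and SWEET3 from 3.36, 3.19, 2.76 and 3.46 to 2.37, 2.26, 2.51 and 2.41 (−0.81 ± 0.14 SE). These 3 genes were dim, as were 12 of the 16. SWEET16, which acts at the vacuole, was brighter and rose from 7.03, 7.01, 7.29 and 7.23 to 7.71, 7.66, 8.09 and 7.96 (0.71 ± 0.12 SE). The other 2 falls were −1.29 and −0.71, and the family median was −0.00135. With 1 array left out there were 4 or 5 falls and 1 rise.

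Of 14 nitrate and peptide transporter genes 2 fell, and both carry glucosinolates, the defence compounds of the cabbage family. GTR1 lay at 7.65, 7.52, 7.63 and 7.84 in level flight and at 7.11, 6.75, 6.74 and 6.64 after parabola 1 (−0.85 ± 0.12 SE). GTR2 lay at 8.60, 8.60, 8.50 and 8.66 and then at 7.77, 7.84, 8.14 and 7.88 (−0.68 ± 0.10 SE). AT5G52050 or DTX50, which exports abscisic acid, was the only MATE-type transporter matched by name and fell from 7.51, 7.52, 8.0 and 7.39 to 5.91, 6.53, 5.41 and 5.46, a 3.42-fold lower level (−1.77 ± 0.25 SE). Of 12 potassium, zinc and iron transporters ZIP6 rose (0.67 ± 0.16 SE) and ZIP9 fell (−0.34 ± 0.10 SE). ZIP9 lost its call when any of 7 of the 8 arrays was left out (adjusted p up to 0.161).

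Enzymes that attach or remove sugars made up 2 of the larger families. Of 55 UDP-glycosyltransferases, which add sugars to small molecules, 7 fell and 1 rose. UGT72E1, which acts on lignin precursors, went from 6.72, 6.59, 7.23 and 6.87 to 5.50, 5.82, 5.74 and 5.82 (−1.13 ± 0.13 SE, adjusted p = 1.44e-05). UGT73B3 went from 5.26, 4.83, 5.46 and 5.25 to 4.25, 4.41, 3.91 and 4.09 (−1.04 ± 0.19 SE), UGT73B5 fell by 0.77 on the log2 scale (SE 0.16) and UGT73B2 by 0.58 (SE 0.13). The last 3 belong to a group known from answers to pathogens and oxidative stress, and UGT73B2 and UGT73B3 lie close together on chromosome 4. Whether their probe sets share signal was not tested. The 4 called members not named lay between −0.72 and 0.47, and with 1 array left out the count of falls was between 4 and 6.

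Of 24 beta-glucosidase genes, whose products release such sugars, 3 rose and 3 fell. BGLU28, known from sulfur starvation, rose from 3.11, 3.04, 2.82 and 2.93 to 4.63, 5.12, 3.54 and 3.41 (1.20 ± 0.27 SE), with replicates 1 and 2 above replicates 3 and 4. BGLU32 fell from 4.19, 3.19, 2.84 and 3.21 to 2.01, 2.03, 2.08 and 2.63 (−1.17 ± 0.22 SE). BGLU46, which acts on glucosides of lignin precursors, fell from 8.02, 7.99, 8.08 and 8.20 to 7.36, 7.43, 7.68 and 7.42 (−0.60 ± 0.14 SE), and BGLU27, which was dim, fell as well (−0.49 ± 0.11 SE). CCR2, a cinnamoyl-CoA reductase of the lignin pathway known from defence, fell 2.83-fold from 8.77, 8.90, 9.40 and 9.18 to 7.48, 8.0, 7.73 and 7.03 (−1.50 ± 0.20 SE). It was the 1 called of 3 phenylpropanoid genes matched by name.

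Of 32 serine carboxypeptidase-like genes 5 fell and 2 rose. SCPL15 lay at 5.35, 4.87, 4.87 and 4.97 in level flight and at 3.67, 2.83, 2.83 and 3.67 after parabola 1 (−1.76 ± 0.20 SE), and SCPL34 at 6.52, 6.51, 5.87 and 6.59 and then at 5.66, 5.29, 4.99 and 5.53 (−1.0 ± 0.18 SE). SCPL27 (−0.56) and scpl28 (−0.46) fell too, but each lost its call when any of 3 of the 8 arrays was left out, among them level replicate 4 and parabola 1 replicate 4 (adjusted p up to 0.0797). With 1 array left out the family held 2 to 6 falls and at most 1 rise. Of 25 cytochromes P450 found by symbol, CYP71B34 fell from 5.91, 5.48, 5.44 and 5.93 to 4.15, 4.18, 4.90 and 4.56 (−1.24 ± 0.23 SE). CYP71B32 (0.55) and CYP71B37 (0.45) rose, and lost their calls when any of 6 and 7 of the 8 arrays, respectively, was left out (adjusted p up to 0.137). With 1 array left out the number of P450 genes that rose lay between 0 and 3.

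Redox genes were called in both directions. Of 6 glutaredoxins GRX480 fell, from between 4.83 and 5.57 to between 2.90 and 2.97, and ROXY2, known from anther development, rose (0.72 ± 0.21 SE). ROXY2 lost its call when any of 7 of the 8 arrays was left out (adjusted p up to 0.140). Of 15 glutathione transferases, which detoxify reactive compounds, ATGSTF13 fell from 7.30, 7.22, 7.18 and 7.61 to 6.05, 6.56, 5.90 and 5.83 (−1.24 ± 0.21 SE) and GSTU15 rose from 2.03, 1.85, 2.28 and 2.15 to 2.48, 2.73, 2.57 and 2.63 (0.53 ± 0.10 SE). GSTF3 fell (−0.76), but its groups overlapped and any of 4 of the 8 arrays ended the call when left out (adjusted p up to 0.0704). MSRB3, a methionine sulfoxide reductase of the endoplasmic reticulum, was the 1 called of 6 matched by name and rose from 7.53, 7.57, 7.50 and 7.45 to 8.12, 7.95, 7.89 and 8.09 (0.50 ± 0.09 SE). Of 8 aldehyde dehydrogenases ALDH6B2 rose (0.38 ± 0.10 SE), but did not pass once level replicate 3 or 4 or parabola 1 replicate 4 was omitted (adjusted p up to 0.113).

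Jacalin-related lectins bind sugars, and several are found in complexes with beta-glucosidases of the endoplasmic reticulum. Of 5 measured, 3 rose and none fell, with a median of 0.36. JAL31 lay at 7.09, 7.05, 7.08 and 6.91 in level flight and at 7.47, 7.38, 7.38 and 7.53 after parabola 1 (0.41 ± 0.10 SE), and passed with each array left out. JAL33 (0.54 ± 0.13 SE) and JAL34 (0.36 ± 0.09 SE) rose as well. JAL33 did not pass once level replicate 4 or parabola 1 replicate 1 or 3 was omitted (adjusted p up to 0.058), nor JAL34 with any of 4 arrays omitted (adjusted p up to 0.0698), which left between 1 and 3 rises. The 3 genes lie close together on chromosome 3, and whether their probe sets share signal was not tested.

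Among peptide signals, RALF peptides bind receptor kinases of the FERONIA type and make the wall space more alkaline. Of 18 RALF genes, 13 of them dimmer than the median gene, 3 fell and none rose. RALFL18 lay at 5.24, 5.28, 5.76 and 5.26 in level flight and at 4.55, 4.28, 4.43 and 4.37 after parabola 1 (−0.97 ± 0.14 SE). RALFL27 (−0.63) and RALFL22 (−0.55) overlapped between the groups and lost their calls when any of 4 and 5 of the 8 arrays, respectively, was left out (adjusted p up to 0.125), which left 1 fall in some fits. Of 16 CLE genes CLE26, which encodes a root peptide, rose from 4.39, 4.39, 3.86 and 4.07 to 4.85, 4.84, 4.78 and 4.65 (0.60 ± 0.16 SE). Of 2 members of other small peptide families IDL4, related to the abscission peptide IDA, rose (0.67 ± 0.20 SE). CLE26 lost its call when any of 4 of the 8 arrays was left out and IDL4 when any of 7 was (adjusted p up to 0.0765 and 0.168).

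Of 73 defensin-like and pathogenesis-related genes, of which 67 were dimmer than the median gene, LCR69 rose from 9.90, 9.95, 10.19 and 9.44 to 10.45, 10.52, 10.57 and 10.71 (0.69 ± 0.13 SE). LCR85 fell (−0.75 ± 0.22 SE) with overlapping groups, and any of 6 of the 8 arrays ended that call when left out (adjusted p up to 0.136). No DEVIL-type peptide gene of 6 and no SCR-like gene of 12 was called. RTFL14 differed by 0.72 (adjusted p = 0.398), with parabola 1 replicate 4 at 4.55 and the rest of its group at 2.79 to 3.10. RTFL18 (0.20), SCRL20 (0.28) and SCRL23 (0.25) did not pass either. Of 10 subtilases SBT3.5 rose from 3.59, 3.49, 3.45 and 3.54 to 4.05, 3.8, 4.17 and 4.12 (0.52 ± 0.11 SE). ATSBT5.2 rose too (0.42), a call that each of the 8 arrays ended when left out (adjusted p up to 0.147).

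In tetraspanins, membrane proteins that gather others into patches, TET8, known from secreted vesicles, fell from 8.10, 7.96, 8.28 and 8.14 to 6.98, 7.34, 7.16 and 7.37 (−0.91 ± 0.14 SE). TET5 rose from 4.52, 4.43, 4.47 and 4.77 to 5.32, 4.88, 5.59 and 5.79 (0.85 ± 0.16 SE), and the other 10 members differed by −0.32 to 0.39.

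Among hormone families, none of 8 AUX/IAA genes, repressors of the auxin response, and none of 8 cytokinin response regulator and receptor genes was called. IAA18 (−0.27, adjusted p = 0.273) and IAA29 (0.22, adjusted p = 0.308) were nearest. RR16 lay at 2.42, 2.71, 3.02 and 2.80 and then at 3.90, 3.41, 3.84 and 2.76 (0.74 ± 0.29 SE, adjusted p = 0.146), and passed without parabola 1 replicate 4 (0.98, adjusted p = 0.0469). ARR15 differed by 0.39 (adjusted p = 0.407). YUC6, an enzyme of auxin synthesis and 1 of 4 measured, rose from 3.26, 3.68, 3.83 and 3.07 to 3.65, 3.87, 4.74 and 4.79 (0.80 ± 0.24 SE), and GID1A, a gibberellin receptor and 1 of 3 measured, rose from between 6.22 and 6.70 to between 6.80 and 7.08 (0.46 ± 0.12 SE). Of 6 GH3 genes, whose enzymes join auxin to amino acids, 1 rose and 2 fell. YUC6 lost its call when any of 4 of the 8 arrays was left out (adjusted p up to 0.151). GID1A and GH3.3 lost theirs when any of 3 was, among them parabola 1 replicates 1 and 4 (adjusted p up to 0.0724 and 0.0666).

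Among 3 hypoxia genes PDC3, a pyruvate decarboxylase of fermentation, lay at 3.30, 3.19, 2.58 and 3.17 in level flight and at 2.08, 2.19, 1.87 and 2.07 after parabola 1 (−1.01 ± 0.13 SE), values under the median of the tested genes on every array. PDC2 fell too (−0.42), and any of 5 of the 8 arrays ended its call when left out (adjusted p up to 0.0843). Of 13 cold and dehydration genes KIN2 and AT2G46140 or LEA27 fell, both by −0.37 (SE 0.11), and with 1 array left out between 0 and 1 of these falls was called (adjusted p up to 0.130).

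Of 10 nuclear photosynthesis genes PSAN, a subunit of photosystem I, rose from 4.68, 4.63, 4.71 and 4.84 to 5.38, 5.27, 5.70 and 5.75 (0.81 ± 0.16 SE), and PSB27, an assembly factor of photosystem II, from 4.49, 4.49, 4.36 and 4.44 to 5.45, 5.33, 4.92 and 5.18 (0.78 ± 0.19 SE). PSB27 lost its call without parabola 1 replicate 1 (adjusted p = 0.056). RCA, the shoot marker, did not pass in the same list. Of 63 chloroplast-encoded genes 59 had a difference above 0, with a median of 0.19 against 0.00796 among all genes. Of these 63 genes 4 rose, all 4 of the ndh group, and with 1 array left out the count lay between 1 and 10. These 4 and PSB27 were among 39 of 142 called genes named here that lost their calls with the median of the rows without a gene as a covariate. Of 12 mitochondrion-encoded genes none was called and 1 had a difference above 0, with a median of −0.09. Nearest were nad9 at −0.23 (adjusted p = 0.175) and matR at −0.28 (adjusted p = 0.256).

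In several families of basic cell functions no member matched by name was called. They were 5 core histones, 13 genes of RNA polymerase subunits and AGO7, 10 CHR chromatin remodellers, 11 autophagy genes and 5 subunits of the vacuolar ATPase. HTB1, a histone H2B gene, lay at 6.02, 6.26, 5.98 and 6.00 in level flight and at 5.63, 5.67, 5.66 and 5.72 after parabola 1 (−0.39 ± 0.16 SE, adjusted p = 0.158). Its groups did not overlap, as in 14.0% of all genes, and it passed when level and parabola 1 arrays were fitted alone (adjusted p = 0.0174). The second histone gene by p was HTR12 (−0.24). The nearest in the other families were NRPB10 (0.24), NRPB6A (0.16), CHR17 (−0.21), ETL1 (0.13), ATG3 (−0.26, adjusted p = 0.0891), ATG8B (0.45, adjusted p = 0.13), VHA-A2 (−0.25) and AVA-P2 (0.09). A p that missed the threshold does not show that these levels were equal.

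Some changes lay in genes that neighbour each other in the reference gene order. Of 8307 pairs of neighbouring tested genes, both were called in 80, with 23 pairs up, 40 down and 17 opposite. With 8.33% of all genes called, some such pairs arise without any link between neighbours. Their expected number was not computed, so 80 is not read as an excess. In 9 pairs both members changed at least 2-fold the same way. They included AT1G26240 (1.95) with AT1G26250 (1.09), AGL46 (1.56) with AT2G28690 (1.11), AT1G17147 (−1.99) with AT1G17145 (−1.87), and the run of AT4G27652 (−1.57), AT4G27654 (−3.02) and AT4G27657 (−2.72). AT1G26250, AT2G28690, AT1G17145 and AT4G27652 were named after their values were seen. Whether related sequences share signal in such pairs was not tested.

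The levels after parabola 1 were also compared with those after parabola 3 and parabola 10. The comparisons with later groups used the same parabola 1 arrays on which the genes were chosen. Over all genes, 1.72% differed between parabola 3 and parabola 1 and 3.56% between parabola 10 and parabola 1. Of the 20 largest falls all 20 were also lower than in level flight after 3 and after 10 parabolas, and of the 20 largest rises 18 and 19 were also higher. The exceptions were AT2G05642 and AT1G47395 after parabola 3 (adjusted p = 0.0504 and 0.196) and AT3G61898 after parabola 10 (adjusted p = 0.127). These comparisons share the level arrays on which the genes were chosen, so that part of the agreement is built in. The share of all genes called against level flight after 3 or 10 parabolas was not computed.

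In some genes the first change was larger than that after 3 parabolas. The gene tny, at 5.65 to 5.85 after parabola 1, lay at 6.24, 6.20, 6.39 and 6.58 after parabola 3 and at 6.55, 6.58 and 6.54 after parabola 10. It was thus 0.59 and 0.79 higher than after parabola 1 (adjusted p = 0.00355 and 0.000493), and did not differ detectably from level flight in either group (0.04 and 0.25, adjusted p = 0.844 and 0.132). AT1G50590 was higher after parabola 3 than after parabola 1 (1.29, adjusted p = 0.00651) and WRKY22 likewise (0.76, adjusted p = 0.0297), and after parabola 10 they differed from parabola 1 by −0.05 and 0.00189. AT5G26290 (−0.77, adjusted p = 0.0094), AT4G16008 (−0.82, adjusted p = 0.00333), AT5G47980 (−0.88, adjusted p = 0.025), bZIP48 (−0.955, adjusted p = 0.0245) and CLE26 (−0.64, adjusted p = 0.0438) had risen after parabola 1 and were lower after parabola 3 than after parabola 1. After parabola 10, AT5G26290 lay at 9.79, 9.89 and 9.67, within its range of 9.59 to 10.28 after parabola 1. AT5G47980 then lay at 5.45, 5.28 and 5.21, also within its range of 4.20 to 5.49. The values after parabola 10 were 4.74, 4.68 and 4.62 in AT4G16008, 5.10, 5.11 and 5.09 in bZIP48, and 4.40, 4.17 and 4.39 in CLE26. In AT3G61898 and TBL42 the decline from parabola 1 was called after parabola 10 (−1.10 and −0.69, adjusted p = 0.00298 and 0.0099).

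In others the change was larger after 10 parabolas than after 1. The peroxidase genes AT1G49570 and AT5G19890 were 1.12 and 1.27 higher after parabola 10 than after parabola 1 (adjusted p = 0.00157 and 0.000819). CYP71B37 was 0.93 higher (adjusted p = 0.00189). ZCF37 (−1.58, adjusted p = 0.000354), AT1G17147 (−1.13, adjusted p = 0.00126), UGT73B5 (−1.01, adjusted p = 0.00318) and PUB23 (−0.76, adjusted p = 0.00654) were lower after parabola 10 than after parabola 1. By contrast, the chloroplast genes ndhF and ndhC, which had risen, were lower after parabola 10 than after parabola 1 (−0.78 and −0.68, adjusted p = 0.00932 and 0.0271).

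**Figure D4:**
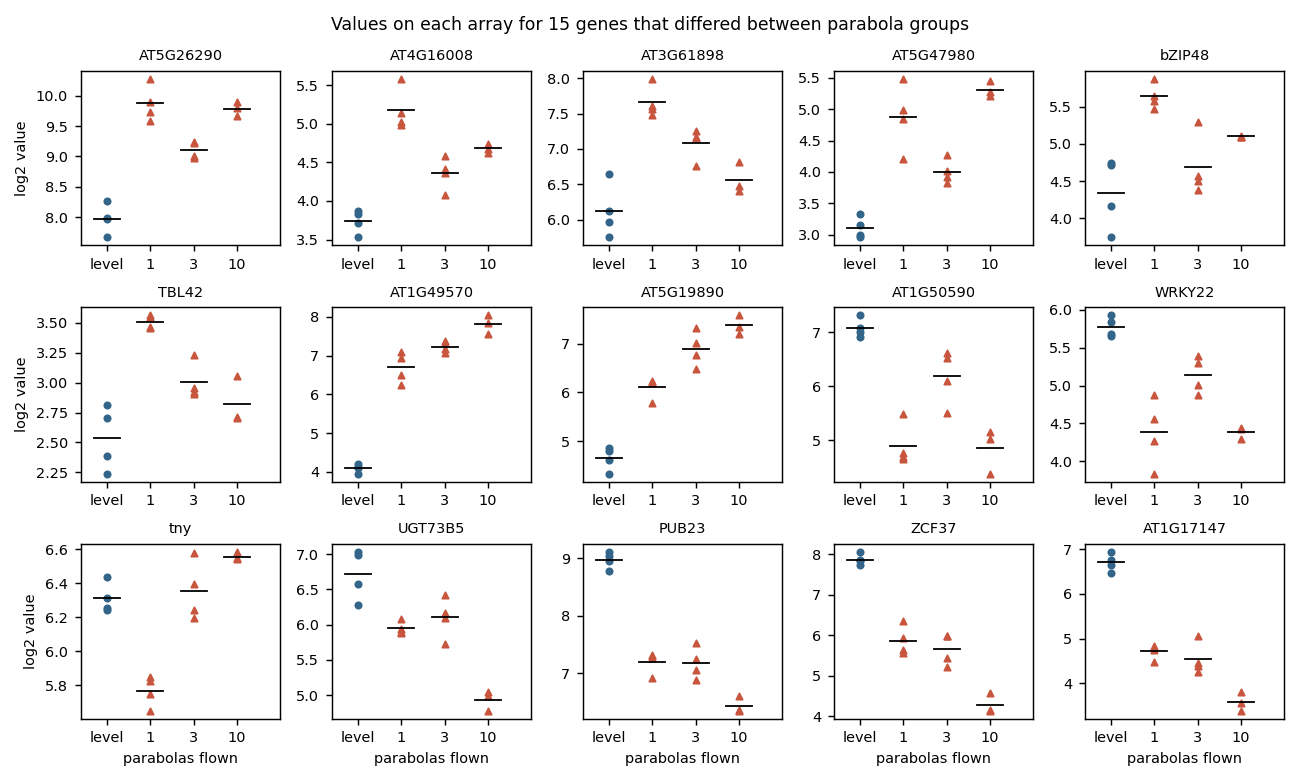
Log2 values on each array for 15 genes whose level differed between parabola 1 and parabola 3 or 10, with black bars at group means. Circles are level flight arrays and triangles arrays after 1, 3 or 10 parabolas, and each panel has its own vertical axis. The arrays of tny after 3 parabolas overlap those of level flight, while PUB23, ZCF37 and UGT73B5 are lowest after 10.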

How the data were processed

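Total RNA of whole roots was measured on Affymetrix AraGene 1.0 ST arrays, 1 per pool. The authors deposited log2 values, 1 per probe set and array. RMA, oligo, limma, R 4.0.0 and TAIR10 appear, without roles, per the submitters' processing notes. Of the table's 38408 rows and 15 arrays all were read, and 0 columns belonged to other samples. Exactly 1 gene was annotated to 16722 rows, several to 759 and none to 20927, and 146 genes had several rows. Of 16550 tested genes 16507 were matched by gene number to a reference table of TAIR10.1, used for names and gene order only, and 14755 are named by locus only. No coordinates or sequences are printed, and the planned promoter motif search was not run.

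A model of 4 group means over the 15 arrays was fitted in limma 3.58.1 under R 4.3.3, with moderated two-sided tests, Benjamini-Hochberg adjustment over all genes and a threshold of 0.05, and the code was tested on simulated data. Families were matched by symbol, and their counts and medians are descriptions without a test. The number of arrays limits the precision. The rule for named genes took called genes without overlap, the 20 largest rises and 20 largest falls, and up to 4 called members per family by smallest p, or 2 where none was called. Members, families and lists were chosen with earlier results of these data known, and the families from serine carboxypeptidase-like proteins, TBL, IQD, TRM, NET, tetraspanins, subtilases, MSRB, YUC, SCRL, CHR, ubiquitin-specific proteases, aldehyde dehydrogenases, autophagy and the vacuolar ATPase were added after the files were read.

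The alternatives were median centring, a repeated quantile normalization, centring on PEX4 (the only listed reference gene measured), removal of the dimmest 25% of genes, all rows, the 2 groups alone, eBayes with trend and robust, array weights, a replicate block, a threshold of 0.01, omission of each array and the median of rows without a gene as a covariate. The median of the 7083 rows before the first annotated row as a covariate was added after seeing the data.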

Additional observations from a re-analysis of the deposited data

Results flagged for a closer look

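Among the named genes, 344 groups of 4 arrays were examined, and in 18 of them, 5.23%, 1 array lay far from the other 3. Chance gives about 5.0%. No cause was tested for any of these values.

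After parabola 1, AT5G19890 lay at 5.78 in replicate 4 against 6.20 to 6.23, AT3G53600 at 3.51 in replicate 3 against 4.35 to 4.47, and AT1G50590 at 5.49 in replicate 2 against 4.65 to 4.76. PUB23 lay at 6.92 in replicate 4 against 7.27 to 7.31, SK18 at 2.84 in replicate 3 against 3.06 to 3.09, and IAA18 at 4.75 in replicate 3 against 5.11 to 5.16. IQD22 lay at 6.46 in replicate 3 against 6.73 to 6.77, and NET1D at 8.03 in replicate 3 against 7.47 to 7.50.

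In the same group, CYP71B37 lay at 2.81 in replicate 1 against 3.19 to 3.25, BGLU32 at 2.63 in replicate 4 against 2.01 to 2.08, and TBL41 at 3.60 in replicate 1 against 3.79 to 3.82.

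Within level flight, JAL33 lay at 2.75 in replicate 4 against 3.29 to 3.30, RALFL18 at 5.76 in replicate 3 against 5.24 to 5.28, and HTB1 at 6.26 in replicate 2 against 5.98 to 6.02. SCPL34 lay at 5.87 in replicate 3 against 6.51 to 6.59, AT2G31110 at 5.91 in replicate 4 against 6.33 to 6.38, VHA-A2 at 6.79 in replicate 4 against 6.44 to 6.49, and ndhK at 8.37 in replicate 3 against 7.87 to 7.95.

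The rows without a gene stood outside the comparisons. Their array medians averaged 3.86 ± 0.04 on the 4 level arrays (SD) and 3.97 ± 0.04 on the 4 arrays of parabola 1 (SD), a difference of 0.11 (exact permutation test, two-sided p = 0.0286, the smallest that 70 arrangements can give). The medians of the tested genes differed by −0.02 (exact permutation test, two-sided p = 0.114).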

How the results depend on the processing

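The number of genes changed at least 2-fold, 257, lay between 242 and 272 with 1 array left out and between 246 and 265 under the other alternatives, except for 648 with all rows tested. All rows gave 2548 changed, 1162 raised and 1386 lowered, from more features. The threshold of 0.01 gave 763, 277 and 486. The median of the rows without a gene as a covariate gave 916 changed and 366 raised. That of the rows before the first annotated row, chosen after seeing the data, gave 482 changed, 180 raised and 302 lowered. Centring on PEX4 gave 345 raised. The cause of these 3 decreases was not tested. With 1 array left out, 1023 to 1184 genes changed, 383 to 489 rose and 628 to 701 fell, and the fewest rises came without level replicate 1.

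Among all changed genes 58.3% were lower, against 53.6% with arrays centred on their medians and 64.2% with arrays centred on PEX4. The replicate block gave 1375 changed, 578 raised, 797 lowered and 259 changed at least 2-fold. Deviations of same-numbered arrays correlated at 0.02 to 0.07. Level replicates 2, 3 and 4 matched best with their own number and replicate 1 with parabola 1 replicate 4. These values are a hint from the data and not from the design. They do not settle whether replicate numbers pair the arrays.

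Of 142 called named genes 105 passed with each of 8 arrays left out. None of these calls changed direction under any alternative run, and 39 were lost with the first covariate, 65 with the second and 19 with centring on PEX4. Among genes not called, GLR2.7 went from −0.19 to 0.00747 with the second covariate, and NET1D, at 0.11, lay between −0.026 and 0.16 with 1 array left out. Dim genes limit the comparison, since 0.749% of the dimmest class were called.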
